A study of Homo sapiens with 24 samples.

Results

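Olfactory receptor (OR) genes of chromosome 11 were examined as a set of genes that breast epithelium is not known to use, in order to see how often a peak of S100A8 or S100A9 lay at such genes. The members were the protein-coding genes of chromosome 11 whose symbol is OR followed by a number, letters, and a number in the GENCODE annotation lifted to hg19 (GRCh37). There were 171 of them among 20098 protein-coding genes on chromosomes 1 to 22 and X. The remaining 1146 protein-coding genes of chromosome 11 and the 228 OR genes of other chromosomes were used for comparison.

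The study concerned S100A8 and S100A9, secreted calcium-binding proteins, when they are made inside the cell. MCF-10A–ER-Src cells are nontransformed human mammary epithelial cells with an inducible Src kinase, which 4-hydroxytamoxifen (TAM) switches on. Lines with S100A8-Flag or S100A9-Flag in a stable retroviral vector were kept for 24 h in 1 µM TAM or in ethanol (EtOH), and chromatin was precipitated with a Flag antibody. The 11 peak lists came from S100A8-Flag in EtOH (n = 2), S100A8-Flag in TAM (n = 3), S100A9-Flag in EtOH (n = 3), and S100A9-Flag in TAM (n = 3). All 4 groups thus carried the inducible Src and a tagged protein from a vector that had entered the genome of a selected population. The study's methods speak of biological replicates, while the labels do not say that replicates came from separate cultures, so p values measure the spread between these libraries, which may be in part technical. Precipitates from cells without a Flag protein were not analyzed here, and neither was RNA, so the word silent rests on what is known of these genes and not on a measurement.

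OR genes encode the receptors with which sensory neurons of the nose detect odorants. They are short, mostly have their whole coding sequence in a single exon, and lie in long clusters of neighboring family members. Each mature olfactory neuron is known to express a single OR allele, while the other OR genes of that neuron are packed in heterochromatin. The subunits of their G protein and of their cyclic nucleotide-gated channel, in contrast, are encoded by genes outside these clusters. OR51, OR52, and OR56 belong to the ancient class I, which resembles the receptors of fish, and the other families form class II.

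The results turn on a few sites where OR genes did have a peak. The sequence around the summit, the base with the highest signal in a peak, is shown for the sites at OR promoters, for the site that an EtOH library called, for the site called in the most libraries, and for a site with a CTCF match. Each runs from 50 bases before to 50 bases after the summit on the plus strand of hg19, and capitals mark matches to the motifs listed further on.
OR51D1 promoter, chr11:4658203-4658303: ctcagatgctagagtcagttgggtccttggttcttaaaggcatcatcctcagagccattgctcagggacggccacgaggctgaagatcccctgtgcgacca
OR52N2 promoter, chr11:5829824-5829924: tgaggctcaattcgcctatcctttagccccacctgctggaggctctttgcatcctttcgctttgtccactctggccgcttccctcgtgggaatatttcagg
OR10S1 promoter, chr11:123848877-123848977: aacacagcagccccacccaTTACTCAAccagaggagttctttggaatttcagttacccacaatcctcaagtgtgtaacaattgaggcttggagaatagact
OR4S1, chr11:48329443-48329543: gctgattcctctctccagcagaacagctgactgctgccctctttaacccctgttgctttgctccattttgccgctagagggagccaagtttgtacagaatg
OR9Q1 intron, chr11:57829416-57829516: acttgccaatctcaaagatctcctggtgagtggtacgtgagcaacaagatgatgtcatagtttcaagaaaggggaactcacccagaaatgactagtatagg
OR8A1, chr11:124456285-124456385: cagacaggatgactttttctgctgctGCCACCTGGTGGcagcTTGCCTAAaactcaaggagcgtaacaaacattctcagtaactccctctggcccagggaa

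Few OR genes had a peak at all. A peak counted when its q value against the library's own input was 1e-07 or less, that is, −log10 q of at least 7. It was placed at a promoter when its summit lay at most 1500 bp before or 250 bp after a transcription start site (TSS), and near a gene when the summit lay in the gene or within 5 kb of it. A promoter peak was present in at least 1 library at 3 of the 171 OR genes (1.75%), against 63.4% of all protein-coding genes and 65.3% of the other genes of chromosome 11. A peak in or within 5 kb was present at 14 OR genes (8.19%), against 80.9% of all protein-coding genes and 82.9% of the other genes of chromosome 11. OR genes are short, with a median length of 1074 bp against 27256.5 bp for all genes, so the window of a typical OR gene was smaller. With a window of the same length for every gene, 5 kb on either side of the most upstream TSS, 10 OR genes (5.85%) and 66.4% of all genes had a peak.

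Calls in more than a single replicate were rarer still. With peaks in at least 2 replicates of a condition, 2 OR genes had a promoter peak (1.17%, all genes 50.9%) and 6 had a peak in or within 5 kb (3.51%, all genes 70.6%). No OR gene had a promoter peak in any EtOH library, while 30.6% of all genes had one in at least 1. A single OR gene, OR4S1, had a peak in or within 5 kb in an EtOH library, against 44.9% of all genes. No OR gene had a peak in or within 5 kb in more than 5 of the 11 libraries. OR genes of other chromosomes were also low, with a promoter peak at 8 of 228 (3.51%) and a peak in or within 5 kb at 28 (12.3%).

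The libraries differed in how many peaks they held. The EtOH lists held 1853 to 4609 peaks past the threshold and the TAM lists 21518 to 40735. Over all protein-coding genes, a peak in or within 5 kb was found at 9.66% to 20.8% in EtOH libraries and 54.4% to 71.4% in TAM libraries. Read numbers are not in the lists, so depth is unknown, and weaker binding and shallower sequencing cannot be told apart here.

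By library, the number of OR genes with a peak in or within 5 kb was 0 and 1 for S100A8-Flag in EtOH. It was 5, 6, and 4 for S100A8-Flag in TAM. It was 0 in all 3 libraries of S100A9-Flag in EtOH and 5, 3, and 8 for S100A9-Flag in TAM. Every TAM library was thus above every EtOH library. Averaged over the proteins, TAM libraries had 4.92 more such genes than EtOH libraries (5.17 ± 1.72, SD, n = 6, against 0.2 ± 0.447, n = 5; exact permutation of the treatment within each protein, two-sided, p = 0.01, which no arrangement of the 200 could undercut). Over all protein-coding genes the share with a peak rose by 42.9 percentage points between the same libraries (exact permutation, p = 0.01). Within S100A8-Flag the difference was 4.50 genes (exact p = 0.2, the smallest possible) and within S100A9-Flag 5.33 genes (exact p = 0.1, the smallest possible), so the proteins taken singly could not pass 0.05. With the 1853 top peaks by q value of each library the difference was 0 (exact permutation, p = 1), since no OR gene was then called in any library.

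**Figure D1:**
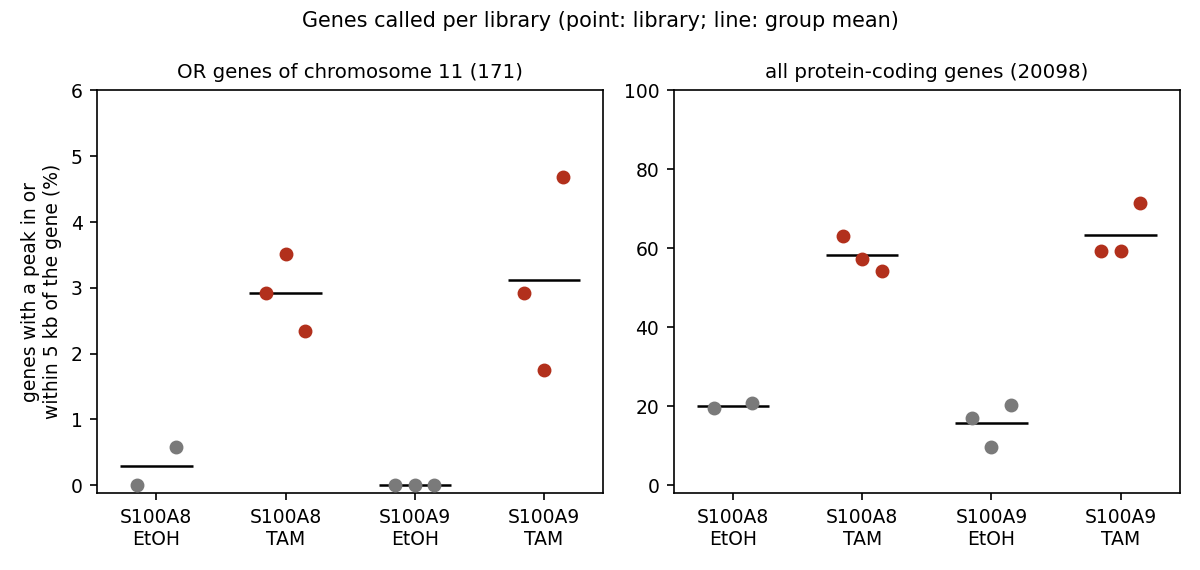
Percentage of genes with a peak in or within 5 kb in each library, for the 171 OR genes of chromosome 11 (left) and for all 20098 protein-coding genes (right, on another scale). Each point is a library and each line a group mean. OR genes sit between 0 and 4.68% and all genes between 9.66% and 71.4%.

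The share of OR genes called stayed a small fraction of the share of all genes in every library. The ratio of these shares was 0 in 4 EtOH libraries and 0.0281 in the other EtOH library. In TAM libraries it ran from 0.0296 to 0.0655. S100A9-Flag in TAM had 0.333 more OR genes per library than S100A8-Flag in TAM (5.33 ± 2.52 against 5.00 ± 1.00, SD, n = 3 each; exact permutation, p = 1), and 9.67 more with every deposited peak (exact permutation, p = 0.4). In EtOH the difference was −0.500 genes (n = 3 and 2, exact permutation, p = 0.8). The smallest p values that these designs allow are 0.1 and 0.2, so neither could pass 0.05.

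Promoter peaks at OR genes were seen in TAM libraries only. S100A8-Flag in TAM had 1, 0, and 1 OR genes with a promoter peak and S100A9-Flag in TAM 0, 2, and 3, while all 5 EtOH libraries had 0. TAM and EtOH libraries overlapped at 0, and the difference of 1.17 genes per library did not pass the test (exact permutation within each protein, two-sided, p = 0.12). Over all protein-coding genes, a promoter peak was found at 6.30% to 12.9% in EtOH libraries and 35.3% to 51.6% in TAM libraries.

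The same was asked of the peaks themselves. The merged windows of the OR genes, 5 kb on either side, formed 130 stretches of 2.43 Mb, or 8.58 of every 10000 bases of the genome. In TAM libraries, 1.25 to 3.73 of every 10000 peaks had their summit there (median 2.14). The upper bound of the exact 95% binomial interval of that rate, which covers counting error only, was 3.65 to 7.08 per 10000 and lay under 8.58 in 6 of 6 TAM libraries. In EtOH libraries the rate was 2.17 per 10000 in S100A8-Flag replicate 2, from a single peak, and 0 in the other 4 libraries. With 1853 to 4596 peaks in those 4 lists, the upper bound of the same exact 95% binomial interval was 8.02 to 19.9 per 10000, and the floor of 3 peaks in a list was 6.53 to 16.2 per 10000. By either bound, rates such as those of TAM libraries were not detectable there.

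The rates in TAM and EtOH libraries differed by 1.69 per 10000 (exact permutation within each protein, two-sided, p = 0.02). Since the floors of the 4 EtOH libraries at 0 lie above every TAM rate, this difference, at this threshold, cannot show a higher rate in TAM. Without S100A8-Flag in EtOH replicate 1 the difference was 1.15 and the exact p was 0.05. With windows of 50 kb on either side of the genes it was 2.16 and the exact p was 0.19. With −log10 q of at least 10, where lists are shorter still, it was 1.64 and the exact p was 0.01. With every deposited peak, where the EtOH lists held 9523 to 34563 peaks, it was 1.51 and the exact p was 0.01. The rates were then 0 to 2.31 per 10000 in EtOH libraries and 2.06 to 3.84 in TAM libraries. S100A9-Flag in EtOH replicates 1 and 2 had 0, among 23638 and 9523 peaks. No floor or interval was worked out for every deposited peak, so whether these lists could show the TAM rates was not tested. Pooled over the TAM libraries, the rate did not fall steadily with peak strength. It was 4.77 per 10000 for deposited peaks with −log10 q from 1.3 to 2, 3.59 from 2 to 3, 2.68 from 3 to 5, and 3.22 from 5 to 7. Above the threshold it was 3.03 from 7 to 10, 1.65 from 10 to 15, 2.77 from 15 to 20, and 0.507 at 20 or more, the last from 1 peak among 19730. The median TAM library had 2.97, 2.90, 3.06, and 2.65 per 10000 in the ranges below the threshold, so its weakest range did not stand out. In the ranges above the threshold it had 3.15, 1.28, 2.99, and 0. Pooled over the EtOH libraries, the rate was lower in each stronger range up to −log10 q of 10 and 0 above, but from few peaks. It was 2.84 per 10000 from 1.3 to 2 (2 peaks), 2.47 from 2 to 3 (5 peaks), 1.24 from 3 to 5 (5 peaks), 0.917 from 5 to 7 (2 peaks), and 0.792 from 7 to 10 (1 peak). From 10 to 15, from 15 to 20, and at 20 or more it was 0, among 5030, 969, and 350 peaks. In the median EtOH library the rate was 0 from 1.3 to 2, 2.58 from 2 to 3, 1.13 from 3 to 5, and 0 in every stronger range.

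Of the 171 OR genes, 157 had no peak past the threshold in or within 5 kb in any library. At 103 of them the deposited lists, which reach down to q = 0.05, held no peak of any strength, and at 54 they held weaker peaks only. With every deposited peak, 68 OR genes had a peak in or within 5 kb in at least 1 library (all genes 92.9%), 42 of them in a single library. Promoter peaks of any strength were present at 14 OR genes (all genes 77.1%), 10 of them in a single library.

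The distance to binding gave the same order. From the most upstream TSS of an OR gene, the nearest summit past the threshold in any library lay at a median of 57515 bp (quartiles 25880.5 and 124347 bp). For the other genes of chromosome 11 the median was 418.5 bp (quartiles 39 and 8651 bp). A summit lay within 1000 bp of the TSS at 3 OR genes (1.75%) and at 56.8% of the other genes. Within 100000 bp, the shares were 69.6% and 96.8%.

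**Figure D2:**
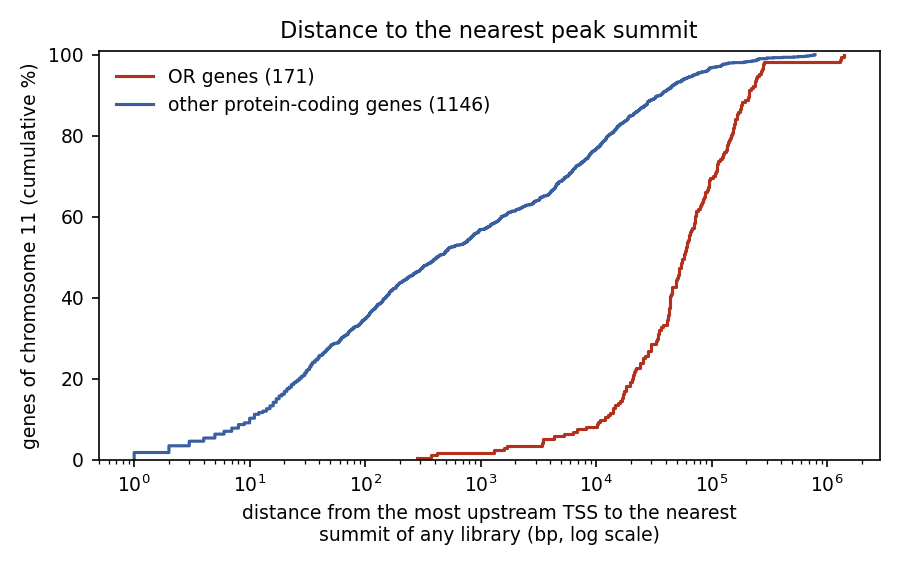
Cumulative percentage of genes of chromosome 11 by the distance from their most upstream TSS to the nearest summit of any library with q of 1e-07 or less (log scale, distances of 0 drawn at 1 bp). The curve of the 171 OR genes lies to the right of that of the 1146 other genes, with medians of 57515 and 418.5 bp.

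The OR genes fell into 11 clusters, when genes no more than 500 kb apart were joined. The longest spans 1.83 Mb of 11p from OR52B4 to OR52W1, holds 55 OR genes around the β-globin genes, and had 4 genes with a peak in or within 5 kb. The next, 48 OR genes over 1.65 Mb from OR4A16 to OR5AK2, had 3. The 22 OR genes from OR6X1 to OR8A1 had 3, the 13 from OR9Q1 to OR5B21 had 1, and the 8 from OR2AG2 to OR2D3 had 1. The 4 from OR5P2 to OR10A3 and the 7 from OR4B1 to OR4A47 had 1 each. None of the 8 OR genes from OR5AN1 to OR10V1 had a peak, and neither had those of the other 3 clusters, which hold 1 to 3 OR genes each. Of all protein-coding genes, 80.9% had such a peak.

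**Figure D3:**
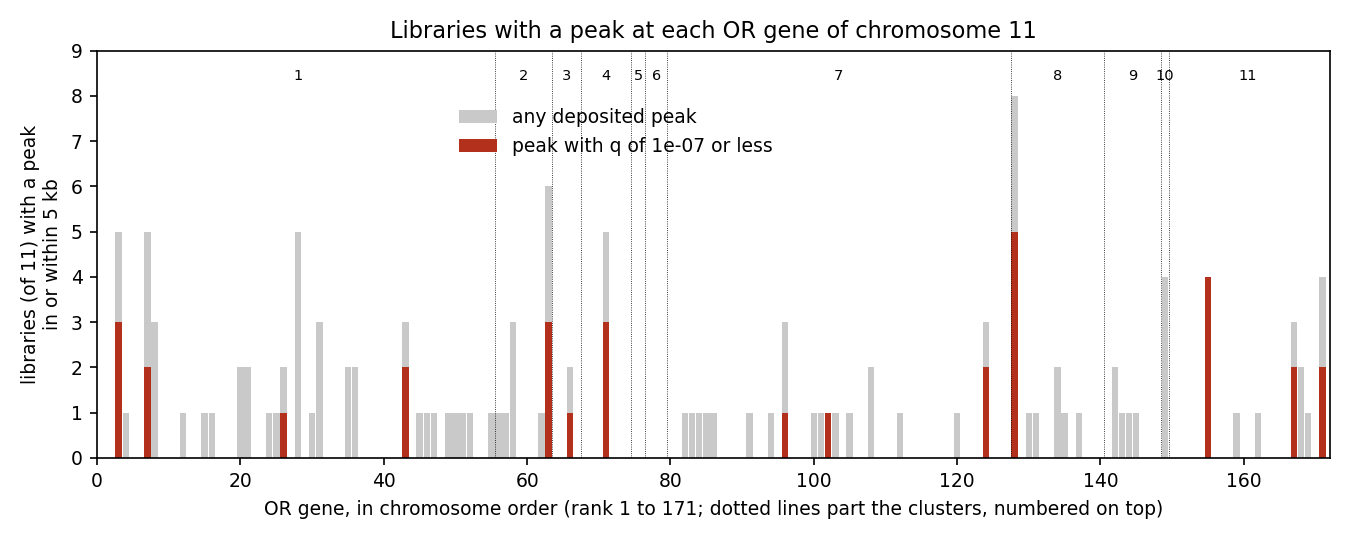
Number of libraries, of 11, with a peak in or within 5 kb of each OR gene, in chromosome order. Red bars count peaks with q of 1e-07 or less and gray bars any deposited peak, and dotted lines part the 11 clusters. The tallest red bar, at OR9Q1, reaches 5 libraries, and 157 genes have no red bar.

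The calls were spread over both classes of receptors. A peak in or within 5 kb was present at 4 of 55 class I genes (7.27%) and at 10 of 116 class II genes (8.62%), against 80.9% of all protein-coding genes. The largest family, OR5, had 0 of 35 genes called, and 7 of the 35 had a weaker deposited peak. OR2 had 1 of 5, OR4 1 of 25, OR8 3 of 23, OR9 2 of 5, OR10 3 of 16, OR51 2 of 22, and OR52 2 of 27. OR1, OR6, and OR56 had 0 of 2, 0 of 5, and 0 of 6. These are counts of genes in the same libraries and were not tested.

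The OR genes OR51E2, OR51E1, and OR2AT4 are known to be expressed outside the nose, and had no peak past the threshold in or within 5 kb. OR51E2, known from prostate epithelium, had no deposited peak in or within 5 kb in any library, and its TSS lay 60794 bp from the nearest summit past the threshold. Its neighbor OR51E1 had weaker peaks in 3 libraries. OR2AT4, known from keratinocytes, had weaker peaks in 4 libraries. These 3 genes were picked for what is known of them, after the values had been seen.

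The 14 genes were reached by 38 peaks past the threshold, 37 of them from TAM libraries and 1 from an EtOH library. Most peaks of the whole genome were from TAM libraries too, with 21518 to 40735 past the threshold per TAM list and 1853 to 4609 per EtOH list. Merged across libraries, the peaks formed 20 sites with a median width of 178 bp. Of these sites, 9 were called in a single library, 11 in at least 2, and 5 in at least 3. S100A8-Flag and S100A9-Flag libraries shared 9 sites, while 7 passed the threshold in S100A8-Flag only and 4 in S100A9-Flag only. The matching counts by library and by protein over all 70990 sites of the 11 lists are not given here. Whether these splits are particular to OR sites was therefore not tested. Ranked by fold enrichment within their own library, the 38 peaks had a median percentile of 42.2 among the peaks past the threshold. Their fold enrichment ran from 4.40 to 16.5 with a median of 7.44.

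**Figure D4:**
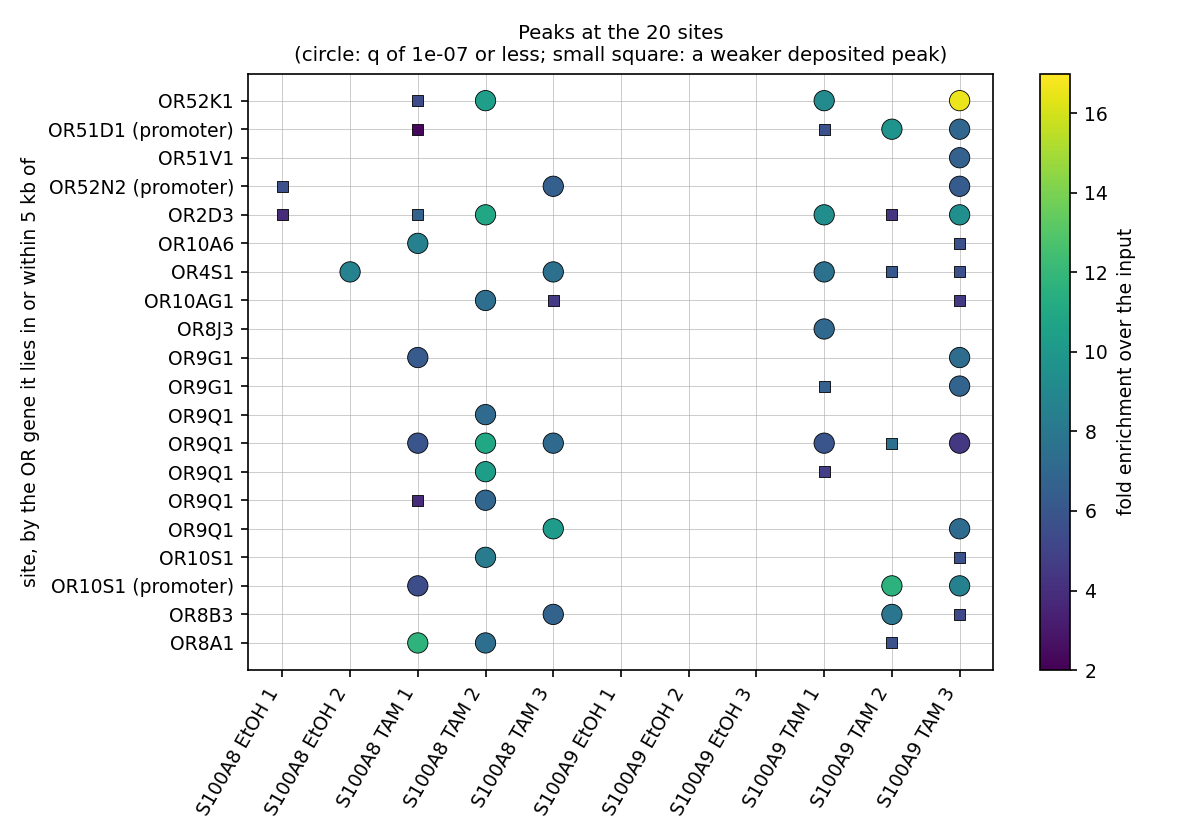
Fold enrichment over input (color) at the 20 sites in or within 5 kb of OR genes, by library. Circles are peaks with q of 1e-07 or less, small squares weaker deposited peaks, and an empty crossing means that the list holds no peak there. Of the 38 circles, 37 lie in TAM columns, whose lists hold 21518 to 40735 peaks past the threshold, against 1853 to 4609 in EtOH lists.

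OR10S1, a class II receptor gene at chr11:123847368-123848488 on the minus strand, had the promoter peak seen in the most libraries. Its summit lay 439 bp upstream of the TSS, with fold enrichments over input of 5.51 in S100A8-Flag in TAM replicate 1, 11.6 in S100A9-Flag in TAM replicate 2, and 8.52 in S100A9-Flag in TAM replicate 3. The other 8 lists held no peak there. A second site, 3759 bp downstream of the TSS, was called in S100A8-Flag in TAM replicate 2 with a fold enrichment of 8.19.

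OR51D1, a class I gene at chr11:4658707-4664290 on the plus strand, had a promoter peak in S100A9-Flag only. The summit lay 454 bp upstream of the TSS, and the fold enrichment was 9.74 in S100A9-Flag in TAM replicate 2 and 6.88 in replicate 3. Replicate 1 of that group held a weaker peak of 5.74-fold, and S100A8-Flag in TAM replicate 1 one of 2.31-fold, so the absence of S100A8-Flag above the threshold is not an absence of any signal.

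OR52N2, a class I gene at chr11:5830154-5842713 on the plus strand, had a promoter peak with its summit 280 bp upstream of the TSS. The fold enrichment was 6.48 in S100A8-Flag in TAM replicate 3 and 6.34 in S100A9-Flag in TAM replicate 3. S100A8-Flag in EtOH replicate 1 held a weaker peak of 5.66-fold that overlaps the site. The site also lies inside the gene model of TRIM5, an antiviral restriction factor, on the other strand.

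Of the sites away from OR promoters, the one in most libraries lay inside OR9Q1. The gene model of this class II receptor spans 157736 bp, far above the median member, and contains further OR genes. Its main site, with a summit at position 57829466 in an intron, 31041 bp from the nearest TSS of an OR gene (OR6Q1), was called in 5 TAM libraries. The fold enrichment was 5.94, 10.9, and 7.06 in S100A8-Flag in TAM replicates 1 to 3, and 5.92 and 4.40 in S100A9-Flag in TAM replicates 1 and 3. Replicate 2 of S100A9-Flag in TAM held a peak of 7.48-fold just under the threshold, with −log10 q of 6.94, and no EtOH list held a peak there. OR9Q1 held 4 more sites, called in 1 or 2 TAM libraries each. Without the 2 OR genes over 100 kb, OR9Q1 and OR51B5, 13 of 169 OR genes had a peak in or within 5 kb (all genes 80.9%).

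OR4S1, a class II gene at chr11:48327775-48328704 on the plus strand, was the only member called in EtOH. The site lay 1718 bp downstream of the TSS and past the end of the gene. Its fold enrichment was 8.66 in S100A8-Flag in EtOH replicate 2, 7.49 in S100A8-Flag in TAM replicate 3, and 7.62 in S100A9-Flag in TAM replicate 1, so the EtOH value was not below the TAM values. S100A9-Flag in TAM replicates 2 and 3 held weaker peaks of 6.06-fold and 5.68-fold.

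The highest enrichment among all members was at the 3′ end of OR52K1, a class I gene. The summit lay in the 3′ untranslated region, 10777 bp from the TSS, with 10.3-fold enrichment in S100A8-Flag in TAM replicate 2 and 9.10-fold and 16.5-fold in S100A9-Flag in TAM replicates 1 and 3. A weaker peak of 5.42-fold was held by S100A8-Flag in TAM replicate 1. Of the 201 bases around this summit, 52.9% of the 32-base words occur once in the genome, and how many reads could be placed uniquely there was not tested. The share was lower at the OR8J3 site (27.1%) and at the OR9Q1 site with its summit at position 57856597 (48.8%). At the remaining sites it was at least 98.2%.

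The site assigned to OR2D3 lay closer to another gene. Its highest summit was 5865 bp from the TSS of OR2D3 but 345 bp from a TSS of ZNF215, which encodes a zinc finger protein. It was called in S100A8-Flag in TAM replicate 2 at 10.9-fold and in S100A9-Flag in TAM replicates 1 and 3 at 9.38-fold and 9.39-fold.

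OR8B3 had a site 3501 bp upstream of its TSS, called in S100A8-Flag in TAM replicate 3 at 6.64-fold and in S100A9-Flag in TAM replicate 2 at 7.82-fold. OR8A1 had a site downstream of the gene, called in S100A8-Flag in TAM replicates 1 and 2 at 11.7-fold and 7.39-fold, and S100A9-Flag in TAM replicate 2 held a weaker peak of 5.77-fold there. OR9G1 had a site in its coding sequence, at 6.22-fold in S100A8-Flag in TAM replicate 1 and 7.33-fold in S100A9-Flag in TAM replicate 3. The other 4 genes, OR51V1, OR10A6, OR10AG1, and OR8J3, were called in a single TAM library each, with fold enrichments of 6.63 to 8.49.

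Since only uniquely mapped reads were used, and OR genes belong to a large family of related sequences, it was measured how much of each promoter can be read uniquely. In the promoter windows of the OR genes, a median of 98.0% of 32-base words occur once in the genome (quartiles 90.1% and 99.9%). In those of the other genes of chromosome 11 the median was 96.7% (quartiles 86.9% and 100%). Under 50% of the words were unique in 1 OR promoter (0.585%) and in 21 of the others (1.83%). Of the 98 OR genes with at least 90% unique words in the gene and 5 kb around it, 8 had a peak in that window, which 80.9% of all protein-coding genes had. Of the 61 with 75% to 90%, 4 had a peak, and of the 12 with 50% to 75%, 2 had a peak. The part of unique mapping in the calls was not tested.

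OR promoters were poor in G and C. Their promoter windows had a median GC content of 36.7% (quartiles 34.5% and 39.7%), against 52.3% (46.7% and 57.9%) for the other genes of chromosome 11. The ratio of observed to expected CpG was 0.148 at the median OR promoter and 0.507 at the others. It was above 0.6, a usual mark of CpG islands, at 1 of 171 OR promoters (0.585%) and at 36.1% of the others.

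Among the other genes the called share was higher in each higher range of GC content. Of the promoters with under 35% GC, 0 of 51 OR genes and 3 of 14 other genes (21.4%) had a promoter peak. From 35% to 40% the counts were 0 of 80 and 17 of 68 (25%), and from 40% to 45% they were 1 of 31 (3.23%) and 60 of 147 (40.8%). From 45% to 50% they were 2 of 6 and 139 of 209 (66.5%), and at 50% or more they were 0 of 3 and 529 of 708 (74.7%). OR genes and other genes of like GC content were not tested against each other. The 3 OR genes with a promoter peak stood high in GC among members, with 48.7% at OR51D1 (rank 4 of 171), 46.6% at OR52N2 (rank 7), and 43.3% at OR10S1 (rank 14). The part of GC content in these calls was not tested.

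**Figure D5:**
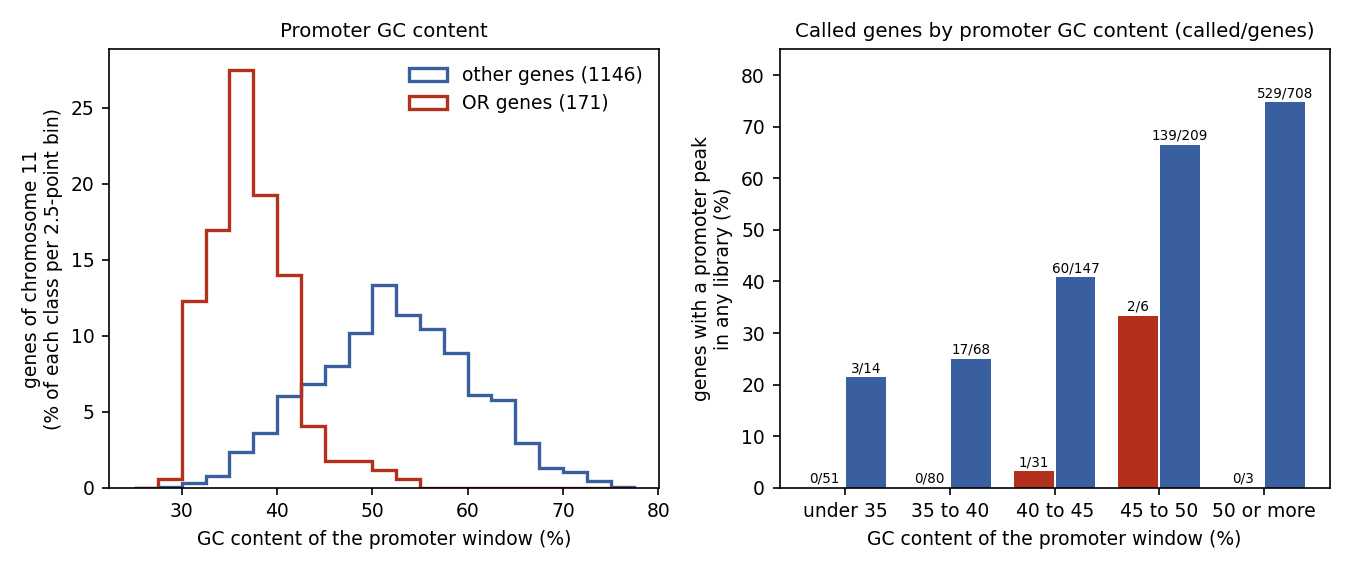
Left, GC content of the promoter windows of 171 OR genes and 1146 other genes of chromosome 11, as a percentage of each class per bin. Right, percentage of genes with a promoter peak in any library by GC content, with called genes over all genes above each bar. In the bins under 40% GC, no OR gene was called.

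Motifs were matched without mismatch on both strands, in the promoter window of 1751 bp and in 201 bp around the summits. The ETS motif CGGAAG was present in 8.77% of OR promoters and 44.7% of all promoters. The KLF/SP1 motif CCCCGCCC was present in 0.585% and 40.9%, and the EBF motif CCCNNGGG, of the factors that act on OR promoters in the nose, in 20.5% and 52.9%. Motifs rich in A and T were more frequent at OR genes than at all genes. The homeodomain motif TAATTA, which LHX2 and related factors bind, was present in 71.9% of OR promoters and 32.4% of all, and the AP-1 motif TGANTCA in 49.1% and 34.2%. The STAT3 motif TTCNNNGAA was present in 52.6% and 37.8%, the C/EBP motif TTNCNNAA in 99.4% and 93.7%, the CREB motif TGACGTCA in 1.75% and 3.54%, and the CTCF motif in 1.17% and 9.04%. A window this long holds short AT-rich words often, and a match is not a binding site.

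The same motifs were then counted at the summits of the peaks. The AP-1 motif lay within 100 bp of the summit at 7 of 20 OR sites (35%) and at 30.2% of all 70990 sites of the 11 lists. The C/EBP motif was present at 7 (35%) and 32.9%, the ETS motif at 1 (5%) and 9.23%, the homeodomain motif at 2 (10%) and 2.03%, and the CTCF motif at 3 (15%) and 8.74%. The STAT3 motif was present at 1 (5%) and 5.52%. The KLF/SP1, CREB, and EBF motifs were at 0 of 20 OR sites and at 7.33%, 0.749%, and 10.8% of all sites. The GC content of the 20 windows had a median of 45.02%, between 38.8% and 60.2%, against 53.2% for all sites. With 20 sites these shares rest on few counts and were not tested. In the sequences shown above, the capitals at OR8A1 mark a CTCF match and a C/EBP match, and those at OR10S1 a C/EBP match. The other 4 hold no exact match to any of the 9 motifs within 50 bases of the summit. Within 100 bp of the summit, the OR51D1 promoter site had a CTCF match and the OR9Q1 site shown a C/EBP match. The OR10S1 promoter site also had a homeodomain match in that wider window. These matches are among the counts given above.

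Other protein-coding genes also start inside the OR clusters. Of 30 such genes, which include globin genes, TRIM genes, and genes named as OR pseudogenes, 7 had a promoter peak (23.3%, all genes 63.4%) and 13 a peak in or within 5 kb (43.3%, all genes 80.9%). Some of these gene models run across OR genes, and in the window of equal length around the most upstream TSS 8 of the 30 had a peak (26.7%, all genes 66.4%). The differences from the OR genes were not tested. STX3, which encodes a syntaxin of the apical membrane of epithelial cells, had a promoter peak in 1 EtOH and 6 TAM libraries. Its most upstream TSS lies at the edge of its cluster, 6418 bp from the nearest summit, so that its promoter peaks belong to a TSS outside the cluster. PATL1, an mRNA decay factor, had one in 1 EtOH and 3 TAM libraries and VWA5A in 0 EtOH and 4 TAM libraries. TRIM5 and TRIM68 were called in 2 TAM libraries each, and TRIM21, an intracellular antibody receptor, and OSBP, an oxysterol-binding protein, in 1 TAM library each.

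Genes of odorant signaling and regulators of OR genes lie outside the OR clusters. Of 13 genes of odorant signaling, 8 had a promoter peak in at least 1 library, near the 63.4% of all genes. GNAL, the G protein subunit that couples to ORs, had one in 3 EtOH and 6 TAM libraries, and RIC8B, its exchange factor, in 0 EtOH and 6 TAM libraries. GNB1, a G protein subunit used by most cells, had one in 1 EtOH and 6 TAM libraries, and ADCY3, the adenylyl cyclase of odorant signaling, in 0 EtOH and 4 TAM libraries. The channel subunits CNGA4 and CNGB1 were called in 0 EtOH and 3 TAM, and in 1 EtOH and 2 TAM libraries. OMP, the olfactory marker protein, had no promoter peak in any library. Of the 3 genes for OR trafficking, RTP1 had a promoter peak, in 1 EtOH and 4 TAM libraries.

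Of 11 regulators of OR genes, 7 had a promoter peak in at least 1 library, again near the 63.4% of all genes. The widely expressed KDM1A, a histone demethylase, had one in 3 EtOH and 6 TAM libraries, and LBR, the lamin B receptor that tethers heterochromatin, in 2 EtOH and 6 TAM libraries. EHMT2, which methylates histone H3, had one in 0 EtOH and 3 TAM libraries. LDB1 had one in 1 EtOH and 1 TAM library, and ATF5 in 0 EtOH and 3 TAM libraries. Of the factors of the olfactory epithelium, EBF1 had one in 0 EtOH and 3 TAM libraries and EBF2 in 0 EtOH and 1 TAM library. EBF3, EBF4, and the homeodomain factors LHX2 and EMX2 had none.

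The labeled cell type was checked on markers in the same lists, by promoter peaks only. Of 12 genes of basal mammary epithelium, 11 had a promoter peak in at least 1 library, TP63 being the exception (all genes 63.4%). Of 4 leukocyte genes, 0 had a promoter peak, and of 7 genes of olfactory sensory neurons 3 did (GNAL, ADCY3, and CNGB1). Luminal genes were called at 4 of 4. Peaks in or within 5 kb were present at 12 of 12 basal, 3 of 4 leukocyte, 6 of 7 olfactory neuron, and 4 of 4 luminal genes, where 80.9% of all genes had one. A promoter peak is not a measure of expression, and this check says only where peaks lay.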

How the data were processed

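Flag ChIP was analyzed in 11 libraries. By the authors, reads were aligned with Bowtie2 (hg19), those mapped uniquely were kept, and MACS2 called peaks per library over its own input (versions not given in the sources used here). The deposited lists give the fold enrichment of a peak (a ratio to input), the −log10 p value, and the −log10 q value. Peaks on chromosomes 1 to 22 and X with −log10 q of at least 7 were assigned to genes of GENCODE 44 lifted to GRCh37 by their summits. Chromosome names agreed between lists and reference, and every peak ended inside its chromosome.

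The members, lists, and tests were chosen with earlier results of these data known. Treatments were compared by exact permutation over libraries, two-sided by doubling the smaller tail. Genes were described by counts beside the share of all protein-coding genes. Named genes were those with a promoter peak in any library or a peak in or within 5 kb in at least 2, and up to 6 other genes of the clusters with the most libraries (7 because of a tie). The 4 OR genes called in 1 library were named after their values were seen. CTCF was matched by the core of its consensus without mismatch, so sequences that differ from that core at any base were not counted. Words of 32 bases were counted on both strands of the genome. Scripts (Python 3.11.15, numpy 2.4.6, pandas 2.3.3) were tested on simulated data. Alternatives were every deposited peak, −log10 q of at least 10, other windows, equal numbers of top peaks, and libraries left out.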

Additional observations from a re-analysis of the deposited data

How the results depend on the processing

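The count of 3 OR genes with a promoter peak was 14 with every deposited peak (all genes 77.1%), 5 with a window from 5000 bp upstream to 1000 bp downstream (all genes 70.1%), 0 with the 1853 top peaks by q value of each library (all genes 25.7%), and 11 of 399 for OR genes on all chromosomes (all genes 63.4%). It was 3 without each library in turn. The count of 14 OR genes with a peak in or within 5 kb was 68 with every deposited peak (all genes 92.9%), 8 with −log10 q of at least 10 (all genes 73.5%), 6 in the gene body only (all genes 69.5%), 78 within 50 kb (all genes 93.4%), 0 with the equal number of top peaks (all genes 39.4%), 6 with at least 2 replicates of a condition (all genes 70.6%), and 42 of 399 on all chromosomes (all genes 80.9%). It was 13 to 14 without each library in turn. In each of these settings the OR share was below that of all genes.

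With equal numbers of top peaks the difference between TAM and EtOH libraries in genes with a peak in or within 5 kb was 0 (exact permutation, p = 1), as no library called an OR gene. It was 16.2 genes with every deposited peak, 2.5 with −log10 q of at least 10, and 30.4 within 50 kb (exact p = 0.01 each). Without each library in turn it was 4.25 to 5.5 genes (exact p 0.0167 to 0.025), that in promoter peaks 0.833 to 1.58 genes, that in peaks per 10000 1.15 to 2.24 (2.16, exact p = 0.19, with 50 kb), and that between S100A9-Flag and S100A8-Flag −1 to 1.5 genes in TAM and −1 to 0 in EtOH. The EtOH comparison was repeated after seeing the data, as was the count without gene models over 100 kb. The replicate numbers are shared between EtOH and TAM, but same-numbered libraries did not deviate together (correlation over genes −0.0129 to 0.0147, 5 pairs). With the replicate number as a block, the differences were 5.2 genes, 1.2 genes with a promoter peak (exact p = 0.25), and 1.79 peaks per 10000. Its smallest p over 5 pairs is 0.0625, which the first and the last reached.

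Read depth is unknown. Past the threshold, the lists of the 4 EtOH libraries with 0 peaks in OR windows hold 1853 to 4596 peaks. That is too few to detect the rates of TAM libraries. With every deposited peak, the EtOH lists hold 9523 to 34563 peaks. The difference between TAM and EtOH libraries in peaks per 10000 was then 1.51 (exact permutation, p = 0.01). No floor or interval was worked out for these longer lists, so whether the shortest of them could show the TAM rates was not tested.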
